A study of Mus musculus with 10 samples.

Results

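Nr4a1, Nr4a2 and Nr4a3 are the 3 genes of the NR4A family of orphan nuclear receptors, taken by their symbols from a table of read counts for 20295 gene models. Polyadenylated RNA was sequenced from interscapular brown fat, which lies beneath the skin over the upper back and burns fuel to make heat. The donors were 10 male C57BL/6JBomTac mice, 8 weeks old and housed singly, with no allele or transgene named in the labels, and the column names of the count table mark all 10 as WT. Of these, 5 were kept at 22 °C (control) and 5 spent 3 days at 4 °C (cold), and each mouse gave its own library. The treatment tag of the cold samples says room temperature beside 4 °C, while their titles and source names place them in the cold group. All 3 receptors passed the filter on low counts, among 11229 genes tested.

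NR4A receptors, also known as Nur77 (Nr4a1), Nurr1 (Nr4a2) and NOR-1 (Nr4a3), are transcription factors with no known classical hormone ligand, because side chains of the protein fill the ligand pocket. Their activity is set largely by how much of them is made, and their genes are immediate early genes that respond within a short time to cAMP, calcium, growth factors and stress. They bind DNA as monomers at a site called NBRE, as dimers, or, for Nr4a1 and Nr4a2, together with retinoid X receptors. In brown adipocytes, noradrenaline acting on beta-adrenergic receptors raises cAMP, and NR4A genes are known early targets of that signal.

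The stretches just upstream of the 3 genes are shown because the genes share one feature there, the TGACG core that the cAMP response element binding protein CREB recognises. The sequences are from RefSeq on build GRCm38.p6 and run 5′ to 3′ on the strand of the gene. Capitals mark TGACG or its reverse complement CGTCA.
Nr4a1, chr15:101266596-101266845, plus strand: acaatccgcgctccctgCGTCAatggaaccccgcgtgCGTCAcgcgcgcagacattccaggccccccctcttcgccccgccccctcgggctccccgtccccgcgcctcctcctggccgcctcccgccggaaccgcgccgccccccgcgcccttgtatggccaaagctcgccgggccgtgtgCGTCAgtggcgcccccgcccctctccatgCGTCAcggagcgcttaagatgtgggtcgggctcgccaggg
Nr4a2, chr2:57124004-57124253, minus strand: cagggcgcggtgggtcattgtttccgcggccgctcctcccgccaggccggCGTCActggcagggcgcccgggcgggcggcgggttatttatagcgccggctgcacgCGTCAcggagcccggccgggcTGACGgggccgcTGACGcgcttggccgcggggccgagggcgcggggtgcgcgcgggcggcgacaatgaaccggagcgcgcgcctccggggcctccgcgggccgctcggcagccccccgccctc
Nr4a3, chr4:48045055-48045152, plus strand: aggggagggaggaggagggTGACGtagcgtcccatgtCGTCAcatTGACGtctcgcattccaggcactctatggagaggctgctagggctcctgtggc

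In the 250 bases before the RefSeq start, each of the 3 genes held 4 matches to TGACG, counted on both strands. For Nr4a3 the 98 bases shown hold 3 of them, since a GENCODE transcript starts inside the rest of its window. Of 32851 windows of this length upstream of all genes, 17.8% held at least 1 match and 0.137% held at least 4. The 3 windows were rich in G and C, at 74.4% in Nr4a1, 80.0% in Nr4a2 and 63.6% in Nr4a3 against a median of 52.4%. Among the 9178 windows with at least 60% G and C, 0.37% held at least 4 matches. The cut of 4 was taken from the counts of these 3 genes, so both shares are a description only. The full palindrome TGACGTCA, in which the core overlaps its own complement, was not in any of the 3 windows and was in 1.55% of all. The NBRE sequence AAAGGTCA was likewise in 0 of the 3 and in 1.34% of all windows. These matches are letters in a window, and no binding was measured.

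The tissue label held up on its markers. Ucp1, the uncoupling protein of brown fat, was at 8077 CPM or more in every control library. Library totals lay between 4446163 and 6923932 counts. Values below are normalised read counts in CPM, read counts scaled to a common library size with TMM factors. A negative log2 fold change means a lower level in the cold. Each comes with its standard error (SE) and the p of edgeR's quasi-likelihood test after Benjamini-Hochberg adjustment across the 11229 genes, called at 0.05.

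Nr4a1 varied widely between mice in both groups. Nr4a1 (Nur77, RefSeq NM_010444, mm9 chromosome 15, 101097277 to 101105225, plus strand) was at 102, 311, 32.6, 7.24 and 25.6 CPM in control replicates 1 to 5. In cold replicates 1 to 5 it was at 26.3, 22.2, 55.9, 18.1 and 8.04 CPM. Control replicate 2 was the highest library and control replicate 4 the lowest, so the cold values lie inside the control range. The highest control was 43.0 times the lowest, and 14.1 times without control replicate 2. Counting error is small beside this, since the lowest control had 43 counts, with a 95% exact Poisson interval of 5.24 to 9.76 CPM, and the highest had 1588. Among the 11229 genes tested, Nr4a1 had the fifth largest SD of log2 CPM over controls, 2.04 against a median gene's 0.24. Over cold libraries its SD was 0.99 against a median of 0.18.

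The mean of Nr4a1 was 95.7 ± 126 CPM (SD, n = 5) in control and 26.1 ± 17.97 CPM (SD, n = 5) in cold libraries, a log2 fold change of -1.86 (SE 0.78, 95% interval -3.55 to -0.17). It did not pass edgeR's quasi-likelihood test (adjusted p = 0.114). The exact two-sided permutation test on log2 CPM gave p = 0.333. In the authors' deposited table Nr4a1 has a log2 fold change of -1.883 and an adjusted p of 0.0298. Without control replicate 2 the estimate was -0.65 (SE 0.59, adjusted p = 0.473), and the 4 remaining controls were at 41.8 ± 41.4 CPM (SD, n = 4).

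Nr4a2 varied least of the 3 receptors among controls, with an SD of log2 CPM of 0.90, while among cold libraries its SD of 0.24 was above the 0.13 of Nr4a3. The latter rests on 3 to 5 counts per library and a prior count of 2, which narrows it, so these 2 cold SDs are not comparable. Nr4a2 (Nurr1, RefSeq NM_001139509, mm9 chromosome 2, 56959637 to 56976414, minus strand) was at 36.9, 95.7, 20.2, 21.1 and 30.5 CPM in control replicates 1 to 5. In cold replicates 1 to 5 it was at 29.7, 31.4, 31.2, 22.0 and 23.4 CPM. Control replicate 2 was again the highest library, and the other 9 lay between 20.2 and 36.9 CPM with the groups intermixed. The means were 40.9 ± 31.4 CPM (SD, n = 5) in control and 27.5 ± 4.49 CPM (SD, n = 5) in cold libraries. The log2 fold change was -0.57 (SE 0.36, 95% interval -1.35 to 0.21, adjusted p = 0.294), and the exact permutation test gave p = 0.579. Without control replicate 2 it was 0.02 (SE 0.18, 95% interval -0.37 to 0.41, adjusted p = 0.943).

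Nr4a3 was the receptor whose groups did not overlap. Nr4a3 (NOR-1, RefSeq NM_015743, mm9 chromosome 4, 48064120 to 48096224, plus strand) had 9, 234, 27, 15 and 9 counts in control replicates 1 to 5, which are 2.04, 45.9, 6.2, 2.53 and 1.86 CPM. It had 4, 5, 5, 5 and 3 counts in cold replicates 1 to 5, which are 0.687, 0.777, 0.713, 0.793 and 0.561 CPM. Every cold library was below every control, and 1 control was far above the rest. The cold values lay close together, but at 3 to 5 counts per library this says little about the spread between mice. Groups did not overlap for 14% of all genes tested, and 6.57% were lower in every cold library than in any control. At these counts single libraries are imprecise: the 95% exact Poisson intervals of the lowest control (0.849 to 3.53 CPM) and of the highest cold library (0.257 to 1.85 CPM) overlap.

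Nr4a3 fell from 11.7 ± 19.2 CPM (SD, n = 5) in control to 0.706 ± 0.0921 CPM (SD, n = 5) in cold libraries. The log2 fold change was -4.01 (SE 1.001, 95% interval -6.17 to -1.85, adjusted p = 0.014), or 16.1-fold lower. Of the 3 receptors 1 passed this threshold, beside 19.3% of all genes tested (9.14% lower and 10.2% higher in the cold). The size of the fall rests on control replicate 2, which held 79.6% of the control counts of Nr4a3. Without that library the log2 fold change was -2.10 (SE 0.43, adjusted p = 0.00412), or 4.29-fold lower, with controls at 3.16 ± 2.05 CPM (SD, n = 4). In that fit 21.4% of all genes passed, 10.2% as lower in the cold and 11.3% as higher, and 18.7% did not overlap, 9.24% as lower in the cold. The exact permutation test gave p = 0.00794, the smallest that 5 against 5 libraries can give, and 0.0159, again the smallest possible, without control replicate 2. Both followed from how Nr4a3 passed the filter, given below, and add no evidence. With limma-voom the value was -2.69 (adjusted p = 0.0803). In the authors' deposited table Nr4a3 has a log2 fold change of -4.015 and an adjusted p of 1.43e-05.

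Nr4a3 passed the filter on low counts through the control group alone. The filter asked for 1.75 unscaled CPM in 5 libraries, the lowest control stood at 1.80 and the highest cold library at 0.835. A gene admitted this way had to differ between the groups, so the lack of overlap and the permutation p were fixed by the filter. With no filter its adjusted p was 0.00931. In bulk tissue, fewer cells that make a transcript and less of it per cell cannot be told apart.

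**Figure D1:**
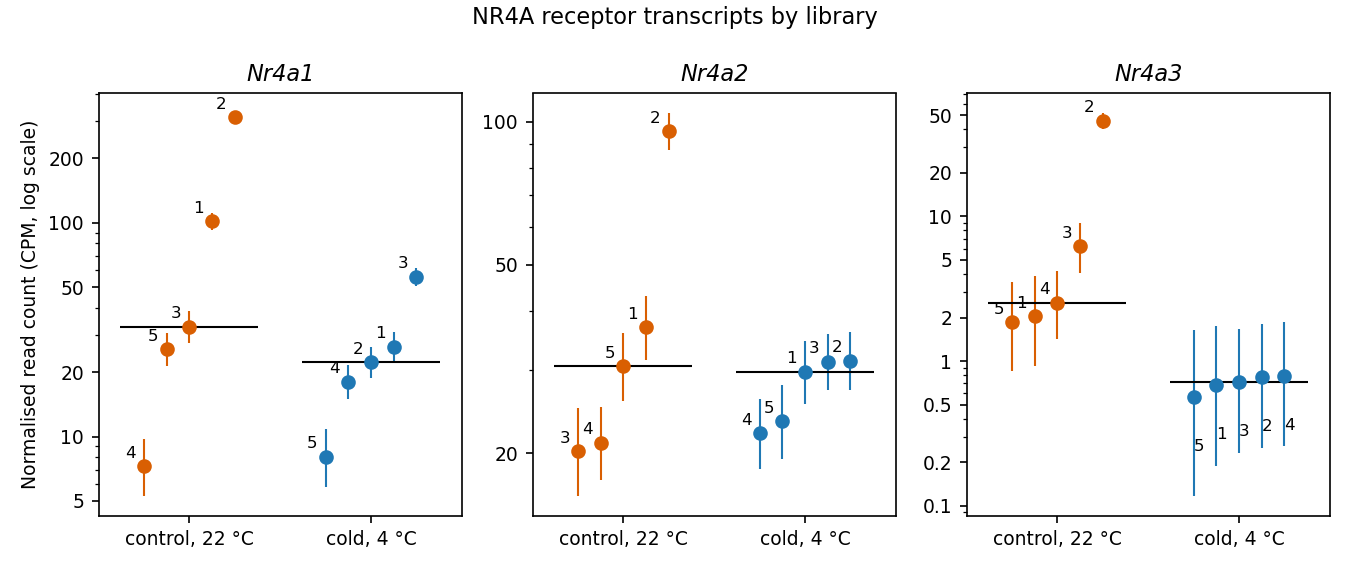
Normalised read counts of Nr4a1, Nr4a2 and Nr4a3 in CPM on log axes, 1 point per library, with the replicate number beside it, 95% exact Poisson intervals for counting error as vertical lines and group medians as horizontal lines. Control replicate 2 is the highest library for each receptor, and the 5 cold libraries lie below the 5 controls for Nr4a3 only.

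The reads of the 3 receptors were not counted over comparable stretches. The table counted Nr4a1 over 2476 bases, Nr4a2 over 3026 and Nr4a3 over 1884. For Nr4a3 both the bases counted and the span of 32105 bases equal those of the coding sequence of GENCODE transcript Nr4a3-201, from start codon to stop codon. That transcript has 5720 bases in all, so reads from the untranslated ends of Nr4a3 were not counted. The stretch counted was the same in all 10 libraries. No other gene model of the table overlaps any of the 3 loci.

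Levels between receptors are compared per kilobase counted, on the CPM scale. On this scale the control medians were 13.2 for Nr4a1, 10.1 for Nr4a2 and 1.34 for Nr4a3. The cold medians were 8.97, 9.82 and 0.378, in the same order. Nr4a1 and Nr4a2 did not differ beyond their spread in either group, since Nr4a1 was the higher of the pair in 4 of 5 controls and 3 of 5 cold libraries. Nr4a3 was the lowest of the 3 in all 10 libraries.

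**Figure D2:**
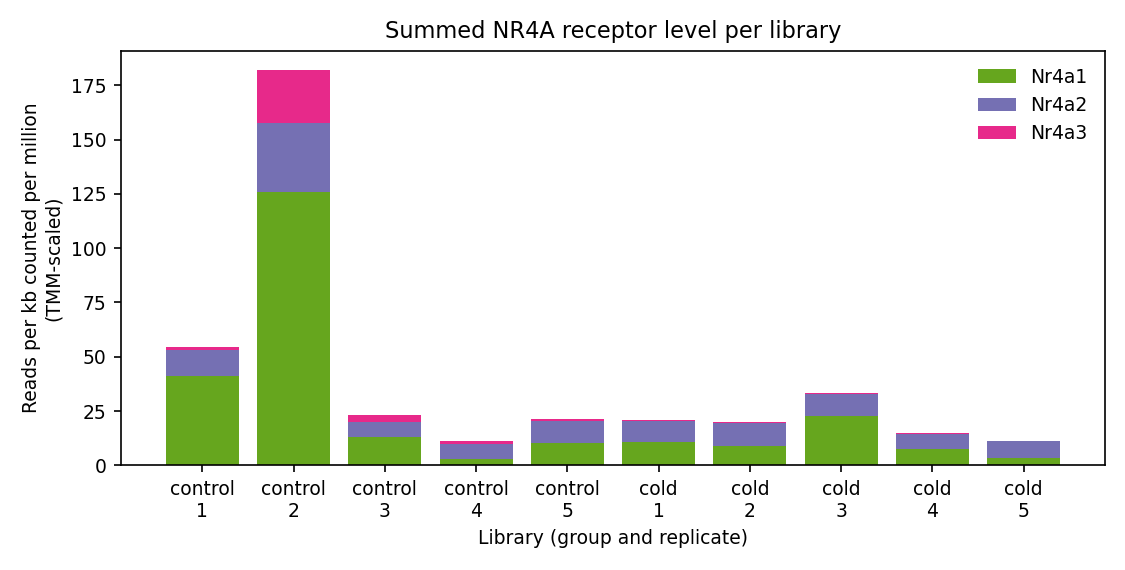
Reads of the 3 receptors per kilobase counted, on the CPM scale, stacked for each of the 10 libraries from 0. The sum is highest in control replicate 2, at 182, and the Nr4a3 segment is thin in every cold library.

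Summed over the family on this per-length scale, control replicates 1 to 5 were at 54.4, 182, 23.2, 11.2 and 21.4, and cold replicates 1 to 5 at 20.8, 19.8, 33.3, 15.0 and 11.3. Nr4a3 made up 1.99%, 13.4%, 14.2%, 11.9% and 4.6% of this sum in the controls and between 1.14% and 2.80% in the cold libraries. The highest and lowest shares did not go with the highest and lowest sums: control replicate 1, second in the family sum, had the lowest control share of Nr4a3. Cold replicate 3, the highest cold library for Nr4a1, had the lowest Nr4a3 share of all. Whether the 3 receptors differed in their change with cold was not tested.

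Control replicate 2 stood apart from the other controls for each receptor. It was 3.06 times the next highest control for Nr4a1, 2.60 times for Nr4a2 and 7.40 times for Nr4a3. On log2 CPM it exceeded the other controls by 3.45 for Nr4a1, 1.85 for Nr4a2 and 3.87 for Nr4a3, where the median over all genes was 0.00. It held 67.7% of the control counts of Nr4a1 and 48.2% of those of Nr4a2.

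**Figure D3:**
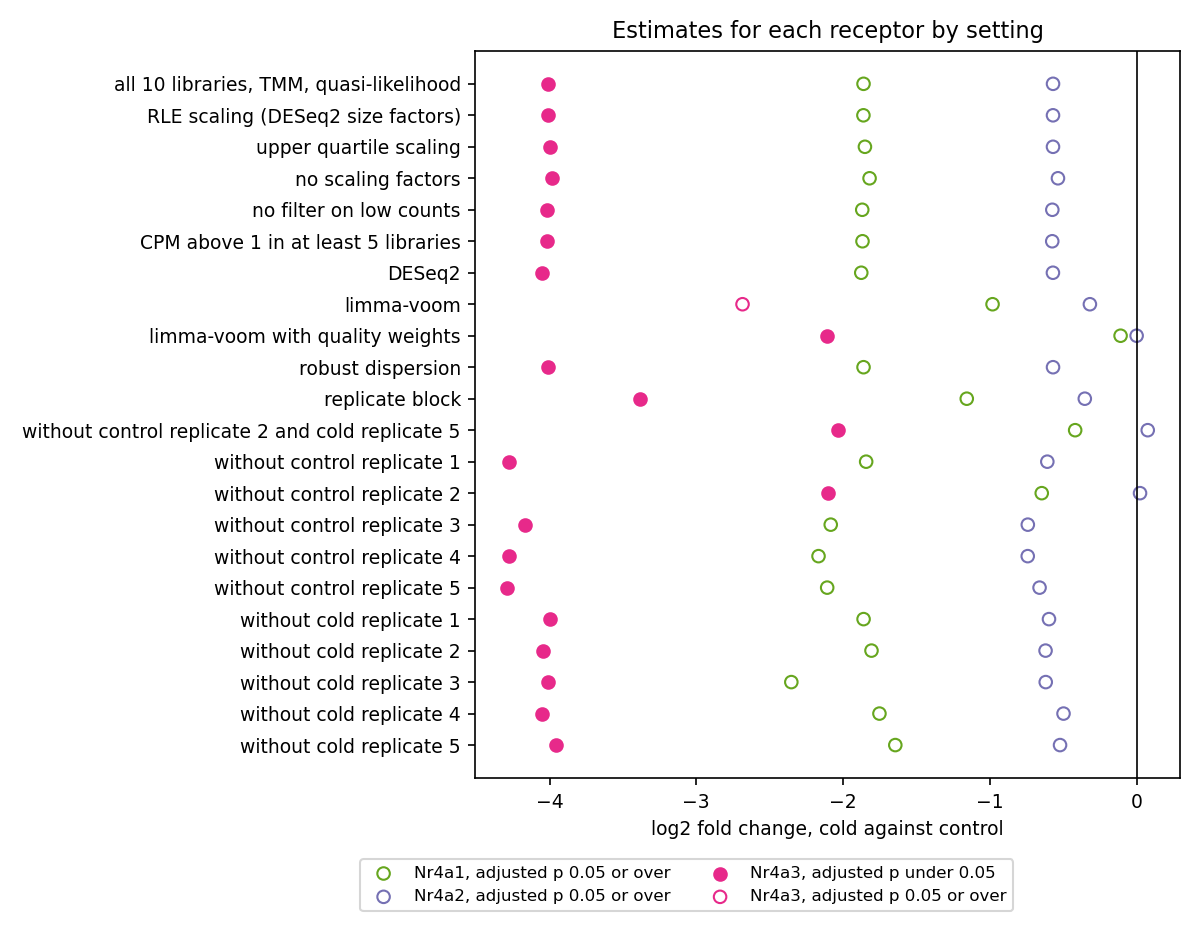
Log2 fold change, cold relative to control, of the 3 receptors under each setting of the analysis. Points are filled where the adjusted p was under 0.05 and open where it was not. Without control replicate 2 the estimates move from -1.86 to -0.65 for Nr4a1, from -0.57 to 0.02 for Nr4a2 and from -4.01 to -2.10 for Nr4a3.

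Other rapidly induced genes were also high in that library. Among immediate early genes, the first genes transcribed after a stimulus, control replicate 2 was the highest control for 15 of 19 tested (78.9%), against 28.5% of all genes. Among genes induced by cAMP it was the highest control for 18 of 20, and among glucocorticoid targets for 14 of 15. All 3 lists were chosen with earlier results of these data known. Those of cAMP-induced and glucocorticoid genes resemble lists made earlier after these data had been seen. The counts of all 3 are a description only. The 3 lists share members and hold 49 tested genes in all, of which 43 were highest in control replicate 2 among controls. The pattern was not shared by every immediate early gene. Atf3, a stress-induced transcription factor, was at 51.0 CPM in control replicate 2 and at 2.06 to 4.52 CPM in the other controls. Egr1, a zinc finger factor induced by growth factors, was at 5.10 CPM there and at 5.05 to 10.1 CPM in the others. Atf3 and Egr1 were chosen after their values were seen.

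**Figure D4:**
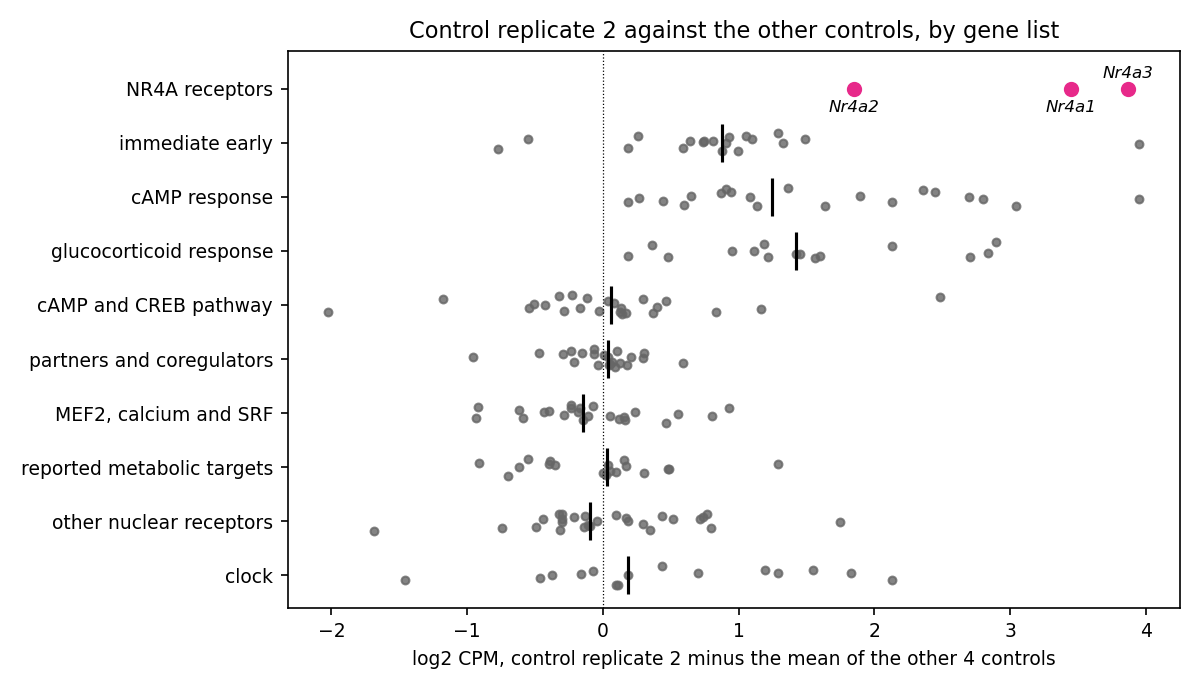
Level of control replicate 2 minus the mean of the other 4 controls on log2 CPM, 1 point per tested gene of each pathway list, with list medians. The median lies at 0.88 for immediate early genes, 1.25 for cAMP-induced genes and 1.42 for glucocorticoid targets, and near 0 for the genes upstream of cAMP and CREB.

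Of 19 tested genes of the immediate early list, which leaves out the NR4A genes, 2 rose and 0 fell in the cold with edgeR (10.5% passed, beside 19.3% of all genes, of which 9.14% as lower). The median log2 fold change was -0.04 beside -0.02 over all genes. At an unadjusted p under 0.05, and with DESeq2 and limma-voom, the number that fell was also 0. Dusp1, a phosphatase that switches off MAP kinases, rose from 43.3 ± 4.24 to 84.2 ± 9.82 CPM (SD, n = 5 each; log2 fold change 0.96, adjusted p = 5.81e-05). Jun, a subunit of the AP-1 transcription factor, rose by 0.91 on the log2 scale (adjusted p = 0.0216). The count that rose was 1 when control replicate 3, control replicate 5, cold replicate 3 or cold replicate 4 was left out, and 3 without control replicate 2.

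Of 20 tested cAMP-induced genes 1, Dusp1, rose and 0 fell with edgeR (5% passed, beside 19.3% of all genes), with a median of 0.07. At an unadjusted p under 0.05, 4 were higher and 4 lower. DESeq2 called 1 higher and 0 lower, limma-voom 2 and 0, and limma-voom with quality weights 7 and 1. Without control replicate 2, 7 rose and the median was 0.57, in a fit where 11.3% of all genes rose and 10.2% fell. Without cold replicate 5, 2 rose. Leaving out control replicate 1 gave 2 that fell, and leaving out control replicate 5 or cold replicate 5 gave 1. Ppargc1a, the coactivator that drives mitochondrial and thermogenic genes, is one that moved: its log2 fold change was -0.20 (adjusted p = 0.836) with all libraries and 1.02 (adjusted p = 0.0159) without control replicate 2. It was at 993 CPM in that library and 81.5 to 215 CPM in the other controls. Of 15 glucocorticoid targets 2 rose and 2 fell (26.7% passed, beside 19.3% of all genes), and without control replicate 2 these were 4 and 1. The count that rose was 1 when control replicate 4 or 5 or cold replicate 1, 2, 3 or 4 was left out. The count that fell was 0 without cold replicate 2, 3 or 4, 1 without control replicate 3, 4 or 5 or cold replicate 1, and 3 without cold replicate 5. Among those that fell, Sult1a1, a sulfotransferase, had a log2 fold change of -1.24 (adjusted p = 0.0317).

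Of 24 genes of the route from the beta-adrenergic receptor to CREB, 4 rose and 1 fell (20.8% passed, near the 19.3% of all genes), with a median of 0.09. Adcy3, an adenylyl cyclase that makes cAMP, rose from 180 to 523 CPM (log2 fold change 1.54, SE 0.21, adjusted p = 0.000303). Gnas, the G protein subunit that activates adenylyl cyclase, rose by 0.84 on the log2 scale (adjusted p = 5.45e-05). Leaving out control replicate 2 gave 3 that fell, leaving out control replicate 1 gave 2, and leaving out cold replicate 1, 3 or 4 gave 0. Of 23 genes of the calcium, MEF2 and serum response factor routes to NR4A genes, 1 rose, Mef2d, a transcription factor of muscle and neurons (log2 fold change 0.32, adjusted p = 0.0415), and 0 fell with edgeR, DESeq2 or limma-voom, with 1 lower at an unadjusted p under 0.05. That is 4.35% passed, beside 19.3% of all genes. Mef2d did not pass when control replicate 5 or cold replicate 1, 2, 4 or 5 was left out.

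The retinoid X receptors that pair with Nr4a1 and Nr4a2 gave log2 fold changes of -0.08 for Rxra, 0.21 for Rxrb and 0.00 for Rxrg, and none of the 3 passed the test (adjusted p = 0.647, 0.158 and 0.986). These 3 genes are named for their role and not by the rule for named genes. Of 22 tested partners and coregulators of NR4A receptors 2 rose and 3 fell (22.7% passed, near the 19.3% of all genes), with a median of -0.00. The count that rose was 1 without control replicate 4 or 5 or cold replicate 1 or 3. The coactivator Ncoa1 rose by 0.50 (adjusted p = 0.0122) on the log2 scale. The histone deacetylase Hdac1 had a log2 fold change of -0.51 (adjusted p = 0.00988) and the corepressor Trim28 one of -0.40 (adjusted p = 0.0116).

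Of 18 tested metabolic genes that have been reported as NR4A targets in one tissue or another, 5 rose and 1 fell (33.3% passed, beside 19.3% of all genes), with a median of 0.17. Ucp1 rose from 9123 to 18532 CPM (log2 fold change 1.02, adjusted p = 1.18e-05). Fgf21, a hormone released by liver and brown fat, rose by 2.82 on the log2 scale (adjusted p = 0.000684). Its controls all lay under the 1.75 CPM of the filter, so Fgf21 was admitted through the cold group alone and had to differ. The count that rose was 2 without control replicate 4, control replicate 5 or cold replicate 2, 3 without cold replicate 3 or 4, and 6 without control replicate 2, when 2 fell. Upstream windows were counted for every gene of a list that has one, tested or not, so these genes are not the tested sets. For the reported targets TGACG was present in 5 of 19 such genes and AAAGGTCA in 0 of 19, beside 19.8% and 1.55% of all genes. Among immediate early genes with a window, 12 of 19 held TGACG.

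Of 27 other nuclear receptors tested 3 rose and 2 fell (18.5% passed, near the 19.3% of all genes), with a median of -0.08. Esrrb, an orphan receptor of the estrogen-related family, rose by 3.08 on the log2 scale (adjusted p = 0.000292). It too was admitted by the filter through the cold group alone, with every control under 1.75 CPM. Esr1, the estrogen receptor alpha, fell, with a log2 fold change of -0.80 (adjusted p = 0.00857). Without cold replicate 3, 4 or 5 the count that rose was 1. Of 15 circadian clock genes 1 rose and 5 fell (40% passed, beside 19.3% of all genes), with a median of -0.66, and without cold replicate 5, 8 fell. The count that rose was 2 without control replicate 2 or 3 and 0 without control replicate 1, 4 or 5 or cold replicate 1, 2, 3 or 4. Dbp, a clock output factor, had a log2 fold change of -2.48 (adjusted p = 0.00286), and the period gene Per3 one of -1.54 (adjusted p = 0.00513). The hour at which tissue was taken is not given in the sources used here, and its part in the NR4A levels was not tested.

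The genes whose log2 CPM ran most like each receptor over the 10 libraries are a description that leans on control replicate 2. For Nr4a1 they were Zscan2 (Pearson r 0.92), Smyd3, Dos, Eif3e and D16Ertd472e (0.90 each). For Nr4a2 they were Etv3 and Asl (0.93 each), Fam214a (0.92), Zmym2 and Hspa5 (0.91 each). For Nr4a3 they were Eif4a2, Alyref, Adck3, Cox7a2l and Hnrnpdl (0.95 each). Without the pair of libraries farthest from the median of the receptor, r was between 0.61 and 0.79 for Nr4a1, 0.55 and 0.72 for Nr4a2, and 0.61 and 0.93 for Nr4a3, with Alyref the highest. Without control replicate 2 alone, 0 of the 5 genes of each receptor were still among its 5 most alike.

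Markers of other cells in the depot were set beside the receptors as summed CPM. In control replicate 2, T and B cell markers summed to 5.88 CPM against 3.62 to 5.78 CPM in the other controls, with 0 of 10 tested. Macrophage markers summed to 101.6 CPM there, inside the range of 96.3 to 214 CPM of the other controls. Neutrophil and mast cell markers summed lower there than in the other controls, at 9.02 against 17.9 to 71.9 CPM, with Fcer1a at 0 in every library. In the cold they summed to 11.3 to 15.2 CPM, below every control but replicate 2, and the 1 marker tested of 9 fell (log2 fold change -1.63). That 1 marker made up most of the mean sums, at 25.3 CPM in controls and 8.14 CPM in the cold. No other marker of this list was above 2.49 CPM in any library, and the means of those others moved both ways. Endothelial markers (1080 against 738 to 912 CPM) and smooth muscle and pericyte markers (829.3 against 663 to 750 CPM) were higher there, and fibroblast markers (481 against 534 to 702 CPM) lower. In the cold, endothelial markers summed to 946 to 1122 CPM and 4 of 10 rose (40% passed, beside 19.3% of all genes). Smooth muscle and pericyte markers summed to 646 to 879 CPM, with 1 of 10 higher and 1 lower (20%, near that share). Macrophage markers summed to 74.3 to 364 CPM, with 2 of 8 tested higher (25%). Fibroblast markers summed to 355 to 1061 CPM in the cold, above every control in 4 of 5 libraries, with 2 of 9 tested higher (22.2%, near the 19.3% of all genes). T and B cell markers summed to 1.87 to 7.15 CPM in the cold. Brown adipocyte markers summed to 17168 CPM in control replicate 2 against 13831 to 15473 CPM in the other controls. Ucp1 was at 9280 CPM there, inside the range of 8077 to 9956 CPM of the other controls. The markers that were higher there include Ppargc1a and 1 more gene of the cAMP-induced list, at 1500 CPM against 166 to 284 CPM. This sum therefore shares genes with that list. In the cold libraries the brown adipocyte markers summed to 23771 to 27468 CPM, with 3 of 12 higher and 1 lower (33.3%). Ucp1, with a mean of 9123 CPM in controls and 18532 CPM in the cold, made up most of these sums. The means of the other brown adipocyte markers moved both ways. General adipocyte markers summed to 14730 to 18606 CPM in controls and 15400 to 18789 CPM in the cold. A single marker, with a mean of 11514 CPM in controls and 13647 CPM after cold, made up most of these sums. Of the 8 markers, 2 fell and 0 rose (25% passed), with a median log2 fold change of -0.18. Without control replicate 2, 3 fell and 1 rose. Skeletal muscle markers ranged from 5.97 to 84.7 CPM in controls and 7.11 to 358 CPM in the cold, and nerve and Schwann cell markers from 123 to 207 and 149 to 246 CPM, with Th and Dbh at 0. Most of the nerve and Schwann cell sums came from 1 marker, with a mean of 128 CPM in controls and 149 CPM in the cold. The part of these cells in the NR4A levels was not tested.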

How the data were processed

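RNA-seq libraries of brown adipose tissue from 5 control and 5 cold mice were used, 1 per mouse. The values are read counts per gene model on mm9, as deposited by the authors; per the submitters' processing notes STAR and edgeR were used, with builds and tools listed there without a role. Which program counted the reads, with which strand setting and version, is not given in the sources used here, so strand was treated as unknown. The authors' deposited table gives a log2 fold change, a log2 CPM and p-values for each gene model, and is quoted by name only. All library columns were used.

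The count table of 20295 gene models, 27 of them named by identifier, was filtered with filterByExpr, leaving 11229. Counts were TMM scaled and fitted with edgeR 4.0.16 (R 4.3.3, glmQLFit and glmQLFTest, group only), with Benjamini-Hochberg adjustment over all genes tested and a threshold of 0.05. CPM with a prior count of 2 was used on the log2 scale for exact two-sided permutation tests (scipy 1.17.1) over 252 splits. Alternatives were DESeq2 1.42.0, limma-voom 3.58.1 with and without quality weights, other scaling, filters and prior counts, a replicate block, and each library left out. Totals ran from 4446163 to 6923932 counts and the common biological coefficient of variation was 16.6%. Intervals on counts cover counting error only. The scripts were tested on simulated data.

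The 3 receptors and the 19 gene lists (9 pathway, 10 marker) were chosen with earlier results of these data known. Named genes were the receptors, the 5 genes most like each by Pearson r, per pathway list 2 called genes by p and 2 by size of change, and Ucp1 and Ppargc1a. One gene that this rule names is not reported here. Promoter sequences came from RefSeq tables on GRCm38.p6, and no coordinate was moved between builds. Replicate numbers did not pair the samples.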

Additional observations from a re-analysis of the deposited data

Results flagged for a closer look

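Of 26 groups of 5 libraries examined for a single library far from the rest, 4 had one. The cut-off assumes normally distributed values and the groups share libraries, so this count is not set against chance. That 1 control library stood apart for the receptors was known beforehand. Nr4a2 stood at 95.7 CPM in control replicate 2, far above the next control at 36.9 CPM. Nr4a3 stood at 45.9 CPM in control replicate 2, far above the next control at 6.2 CPM. The summed neutrophil and mast cell markers stood at 71.9 CPM in control replicate 1, with the next control at 22.7 CPM. Of that sum 65.8 CPM came from a single marker, and no other marker of the list was above 2.49 CPM in any library. The summed skeletal muscle markers stood at 84.7 CPM in control replicate 4, with the next control at 14.9 CPM. Nr4a1 in control replicate 2 did not meet this rule, since the other controls were themselves widely spread.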

How the results depend on the processing

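Over 21 alternatives the log2 fold change of Nr4a1 lay between -2.35 and -0.11 and in none of them passed the threshold (adjusted p 0.0524 to 0.914). That of Nr4a2 lay between -0.74 and 0.08 and never passed. Its sign turned with limma-voom quality weights (0.000429), without control replicate 2 (0.02) and without control replicate 2 and cold replicate 5 (0.0761), and its permutation p was 0.889 without control replicate 2. The cause was not tested. That of Nr4a3 lay between -4.29 and -2.03 and passed in all but limma-voom (-2.69, adjusted p = 0.0803), cause not tested. Leaving out 1 library gave -2.35 to -0.65 for Nr4a1, -0.74 to 0.02 for Nr4a2 and -4.29 to -2.10 for Nr4a3, with permutation p of 0.111 to 0.667, 0.333 to 0.889 and 0.0159 throughout. The permutation p of Nr4a3 was fixed by how it passed the filter. With the replicate block the values were -1.16, -0.35 and -3.38 (adjusted p = 0.272, 0.395 and 0.00739) and 1789 genes were called, beside 2168 without it. Same-numbered libraries correlated at between -0.25 and 0.19, so the numbers were not taken as a pairing. Genes called ranged from 1563 to 3099, the most with quality weights. Depth limits Nr4a3, with 3 to 5 counts in each cold library.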
